A study of Mus musculus with 8 samples.

Results

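The response to lipopolysaccharide (LPS) given without nicotine was measured in peritoneal macrophages, the resident phagocytes of the abdominal cavity, by sequencing poly(A) RNA. The comparison used 4 of the 8 libraries of the series, chosen by treatment alone: LPS and vehicle libraries that had received no nicotine, from wild type C57BL/6 mice and from α7nAChR-/- mice, which lack the nicotinic receptor subunit encoded by Chrna7. Plated cells were washed, and on the next day a 15 min step with vehicle in place of nicotine was followed by 4 h with LPS at 100 ng/ml or with vehicle. Each genotype and treatment had 1 library, so the comparison had 2 libraries a side, paired by genotype. The remaining 4 libraries had received nicotine at 10 µM in the first step. The sources used here do not give the age or sex of the mice or how many animals or preparations stand behind a library. Genotype therefore cannot be told apart from preparation. A p-value of this comparison reflects how far the LPS differences of the 2 genotypes disagree. That spread may be technical, and it is drawn toward the spread of other genes. Of 24339 genes in the deposited table, the 8404 with at least 5 FPKM in at least 1 of the 4 libraries were tested. FPKM is a measure of fragments relative to the length of the transcript and to the depth of the library.

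LPS, from the outer membrane of Gram-negative bacteria, is bound by CD14 and MD-2 (Ly96) and sensed by Toll-like receptor 4. The adaptor MyD88 then leads to NF-kB and AP-1 and to cytokine and chemokine genes, while the adaptor TRIF leads to IRF3 and to interferon β, which acts through its receptor, STAT2 and IRF9 among others on antiviral genes. Inhibitors such as IκBα, A20 and the SOCS proteins are induced by the same signals and limit them.

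The targeted gene did not check the genotype labels, since Chrna7 was listed at 0 FPKM in every library, wild type ones included. Summed FPKM was 413052 and 442307 in the vehicle libraries and 795630 and 854016 in the LPS libraries, wild type first in each pair here and below. Depth in counts is unknown. The labelled cell type was carried by its markers: Lyz2 was at 23020 to 32448 FPKM, Adgre1 (F4/80) at 289 to 421 and Cd68 at 508 to 732 over the 4 libraries. The 12 resident macrophage markers summed to 34922 and 30819 FPKM with vehicle and 25368 and 25532 with LPS. Most of each sum was Lyz2, at 32448 and 28713, then 23023 and 23020 FPKM, so the sums largely restate that 1 gene. All 12 passed the filter. By the test below 2 of them rose with LPS and 1 fell, beside 31.6% and 19.6% of all genes. B cell markers, 6 of them above the filter, summed to 267 and 257 FPKM with vehicle and 218 and 284 with LPS, and the 8 mast cell markers to 211 and 159 with vehicle and 453 and 391 with LPS. The neutrophil list summed to 34.1 and 108 FPKM with vehicle and 113 and 175 with LPS, with Ngp at 0 throughout. Dendritic cell markers came to 64.7 and 74.9 with vehicle and 92.5 and 138 with LPS, and T cell markers to 8.32 to 13.6 in all 4. The eosinophil, natural killer and mesothelial or fibroblast lists summed to 0.846 to 4.79 FPKM in any library, with Prg2, Epx and Krt19 at 0. The part of these cells in the results was not tested. In bulk RNA, fewer cells of a type and less RNA per cell cannot be told apart.

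The strongest rises were in genes of cytokines, chemokines and antiviral proteins, many of them close to silent with vehicle. Il6, encoding interleukin 6 (chromosome 5, 30013114 to 30019981, GRCm38), was at 0.264 and 5.31 FPKM with vehicle and 7857 and 10058 FPKM with LPS. Both LPS libraries stood far above both vehicle libraries, and the knockout vehicle library was the higher of its pair. The mean log2 difference was 11.62 ± 0.50 (moderated SE, limma with Benjamini-Hochberg adjustment, adjusted p = 0.000877), 12.60 in wild type and 10.64 in the knockout. Each ± here and below is a moderated SE. Limma draws the variance of a gene toward that of genes at a like level, so ± is not the observed spread of the 2 pairs. In all, 2652 of 8404 genes (31.6%) were called higher and 1646 (19.6%) lower at an adjusted p under 0.05. These 2 shares are the background for the counts of every list below. Log2 differences here and below are of FPKM + 1, averaged over the genotypes unless one is named, which understates the changes of low genes. At least 2-fold in both genotypes, a description with no test, 1451 genes (17.3%) were higher and 900 (10.7%) lower. By at least 16-fold in both, 119 genes were higher and 5 lower. The median difference of all genes tested was 0.21, and 61.7% of calls were higher. That share was 44.5% with quantile scaling, which moved the median to -0.092, and 48.2% with each library centred on its median, so the balance of rises and falls rests on the scale.

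With 1 library left out and the genotype term dropped, the calls fell to 862 higher and 488 lower without wild type vehicle, 1272 and 754 without wild type LPS, 1321 and 815 without knockout vehicle, and 1392 and 914 without knockout LPS. Of the calls, 695 higher and 397 lower were made again in each of these 4 fits. Such calls are described below as held. In each of these fits 1 side is a single library, assumed to vary like the other side, whose 2 libraries differ in genotype, so held describes a repeated call and is no independent test. For a list, the numbers of calls in these fits are given in the order in which the libraries are named here.

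**Figure D1:**
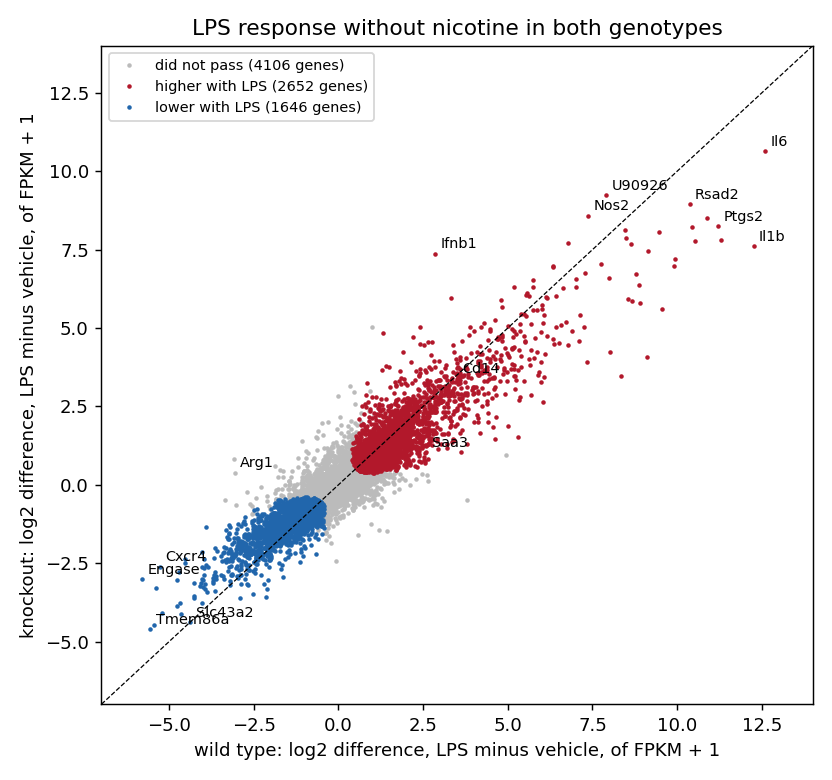
Log2 difference of FPKM + 1, LPS minus vehicle, in wild type (x axis) against the knockout (y axis), 1 point per gene for the 8404 genes tested. Red points are the 2652 genes called higher, blue the 1646 called lower and grey the rest; the dashed line marks equal differences, and Il1b lies well below it while U90926 lies above it.

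Promoter sequence is shown for 6 of the 15 largest rises whose 250 bases upstream of the start hold a motif bound by the factors named above: the kappa B consensus of NF-kB, the interferon response element core of IRF and STAT complexes, a pair of GAAA repeats with any 2 bases between,, or the AP-1 site TGANTCA, each searched on both strands, with overlapping matches of 1 motif counted once. Of the 15 largest rises 13 had a promoter in the table, of which 8 held a match, among them Il1a (AP-1) and Oasl1 (kappa B), which are not shown, and 5 held none: Il1b, Ptgs2, Ch25h, U90926 and Cmpk2. The stretches are from RefSeq (GRCm38.p6), 5′ to 3′ on the gene's strand, with matches in capitals. In Il6 (chr5:30012864-30013089, plus strand) the capitals are an AP-1 match starting 249 bases and a kappa B match starting 44 bases before the start. In the neighbouring neutrophil attractant genes Cxcl1 (chr5:90891149-90891209, plus strand) and Cxcl2 (chr5:90903777-90903837, plus strand) both show 1 kappa B match with the same letters, 71 and 97 bases before the start. In Cxcl10 (chr5:92348947-92349112, minus strand), an interferon response element core, a pair of kappa B matches and an AP-1 match start 213, 159, 104 and 74 bases before it. In Rsad2 (chr12:26456523-26456582, minus strand) a response element core lies 120 and an AP-1 match 87 bases before it, and in Ifit1 (chr19:34640769-34640829, plus strand) a pair of cores lie 104 and 85 bases before it.
Il6: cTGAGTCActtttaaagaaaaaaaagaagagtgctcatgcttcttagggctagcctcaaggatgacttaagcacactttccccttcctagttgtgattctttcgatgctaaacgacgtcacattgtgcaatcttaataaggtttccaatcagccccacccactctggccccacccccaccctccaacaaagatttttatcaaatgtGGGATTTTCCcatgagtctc
Cxcl1: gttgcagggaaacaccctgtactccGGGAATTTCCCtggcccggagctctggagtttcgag
Cxcl2: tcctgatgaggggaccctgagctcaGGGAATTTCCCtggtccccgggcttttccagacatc
Cxcl10: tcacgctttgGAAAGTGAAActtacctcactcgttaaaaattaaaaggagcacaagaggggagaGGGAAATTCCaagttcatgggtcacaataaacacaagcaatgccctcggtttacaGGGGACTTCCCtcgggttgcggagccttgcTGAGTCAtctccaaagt
Rsad2: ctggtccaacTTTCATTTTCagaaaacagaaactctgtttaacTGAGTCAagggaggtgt
Ifit1: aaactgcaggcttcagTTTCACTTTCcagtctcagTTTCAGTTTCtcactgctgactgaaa

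Across 97 promoters of the 119 genes at least 16-fold higher (79 genes matched by symbol), 16.5% held the kappa B consensus, 21.6% the interferon response element core and 19.6% AP-1. Over the 8364 promoters of tested genes the shares were 9.16%, 3.08% and 4.77%, and over all 32851 RefSeq promoters 7.25%, 2.98% and 6.75%. The 1420 promoters of genes at least 2-fold higher in both genotypes held them at 12.3%, 6.41% and 6.97%, and the 917 promoters of genes at least 2-fold lower at 7.96%, 2.18% and 4.36%. By list, 9 of 11 promoters of guanylate-binding and immunity GTPases and 9 of 23 of the antiviral genes held the response element core. The kappa B consensus stood in 7 of 12 promoters of NF-kB subunits and inhibitors, 8 of 20 of interleukins and 4 of 8 of CXC chemokines, but in 1 of 6 of CC chemokines and 1 of 11 of the GTPases. The observed to expected CpG ratio had a median of 0.298 in the 97 promoters and 0.744 in those of tested genes. The strongly raised genes were also compact: 110 protein-coding ones had a median span of 11.1 kb and 6 exons, and 26.4% spanned under 5 kb, against 23.2 kb, 9 exons and 10.8% for the 7986 tested (GENCODE M21). These shares are descriptions, and a match is not a bound site.

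Of the 18 genes of the receptor complex and its adaptors, 10 rose and 3 fell, with a median log2 difference of 0.78 against 0.21 for all genes. Cd14, the LPS-binding co-receptor, was at 329 and 274 FPKM with vehicle and 3726 and 2884 with LPS. Its rise of 3.44 ± 0.21 was the largest of the list (limma adjusted p = 0.00138). Myd88 went from 34.3 and 50.6 to 286 and 319 FPKM (2.83 ± 0.22). Tlr4 itself was at 15.8 and 28.7 FPKM with vehicle and 27.6 and 26.3 with LPS, so the libraries overlapped (0.32 ± 0.27, adjusted p = 0.353), and Ly96 was at 47.6, 29.4, 38.2 and 47.9 FPKM (0.19 ± 0.29, adjusted p = 0.616). Irak2, a kinase of the MyD88 complex (1.79), and Tab2, an adaptor of the kinase TAK1 (1.64), rose. The largest fall was in Ticam2, the bridging adaptor between Toll-like receptor 4 and TRIF, from 19.4 and 27.8 to 8.92 and 12.1 FPKM (-1.09 ± 0.16). This call was lost in each of the 4 fits without 1 library (adjusted p = 0.0568, 0.108, 0.107 and 0.057). The list gave 5, 4, 7 and 6 rises and 0, 0, 0 and 1 falls in the fits without 1 library.

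Of 21 other Toll-like receptors and cytosolic sensors, 15 rose and 1 fell (median 2.12), or 12 and 3 with quantile scaling (median 1.20). Ifih1, the double-stranded RNA sensor MDA5, was at 5.50 and 9.65 FPKM with vehicle and 380 and 506 with LPS (5.72 ± 0.20). Nlrp3, the inflammasome sensor, was at 17.0 and 25.2, then 647 and 535 FPKM (4.76 ± 0.27). Casp4, which encodes the caspase that binds cytosolic LPS (3.37), and Dhx58 (4.48) rose with them, as did Tlr9, the DNA sensor (2.40), and all of these calls held. Tlr13, a sensor of bacterial ribosomal RNA, was the faller, from 147 and 50.6 to 16.6 and 14.9 FPKM (-2.39 ± 0.37). Its call was lost without wild type LPS (limma adjusted p = 0.0957) or knockout LPS (adjusted p = 0.102), and the list gave 10, 10, 12 and 10 rises and 1, 0, 1 and 0 falls in the fits without 1 library.

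**Figure D2:**
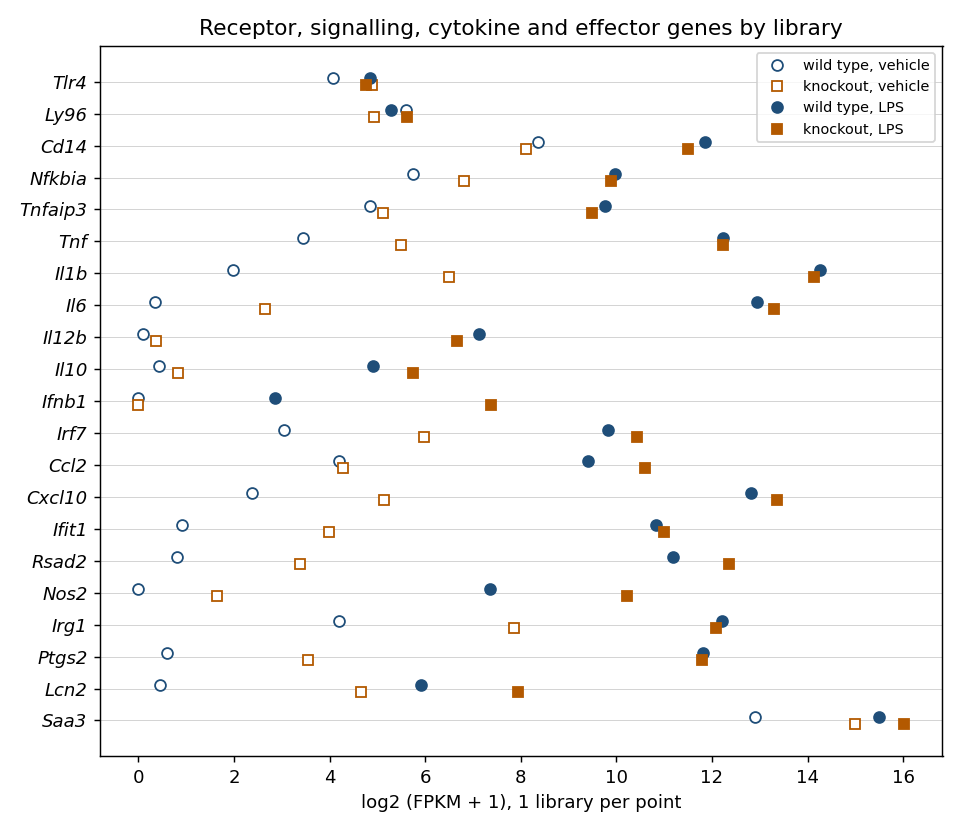
Log2 of FPKM + 1 (x axis) of 21 receptor, signalling, cytokine and effector genes, 1 point per library. Circles are wild type and squares the knockout, open with vehicle and filled with LPS; the points of Tlr4 and Ly96 overlap between treatments, while those of Il6 are separated by more than 10 log2 units, and the open squares of Il1b, Irg1 and Lcn2 lie to the right of the open circles.

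All 12 genes of NF-kB subunits and their inhibitors rose (median 2.69), and 9 of the calls held. Nfkbiz, encoding the nuclear co-regulator IκBζ, was at 6.75 and 7.66 FPKM with vehicle and 279 and 261 with LPS (5.05 ± 0.19, limma adjusted p = 0.000784). Nfkbia, encoding IκBα, went from 52.5 and 111 to 1009 and 950 FPKM (3.66 ± 0.34). Of the subunits, Nfkb2 (3.53), Nfkb1 (3.40), Rel (2.61) and Rela (1.75) rose and their calls held. Relb was the smallest at 1.37 ± 0.29. Its call was lost with quantile scaling (0.75, adjusted p = 0.134) and without wild type vehicle, wild type LPS or knockout LPS (adjusted p = 0.0865, 0.125 and 0.106).

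Feedback genes rose in 16 of 19, with a median of 3.37, and 12 of the calls held. Socs3, an inhibitor of cytokine receptor signalling, was at 15.2 and 25.7 FPKM with vehicle and 1073 and 946 with LPS (5.60 ± 0.29). Socs1 went from 2.07 and 8.59 to 140 and 399 FPKM (5.46 ± 0.18), and Tnfaip3, encoding A20, from 27.6 and 33.9 to 862 and 714 (4.64 ± 0.24). The ribonuclease gene Zc3h12a (4.16), the anti-apoptotic Bcl2a1b (4.06, a member of a family of near-identical copies, so its counts are uncertain) and the mRNA decay factor gene Zfp36 (2.71) also rose. Of 8 MAP kinase phosphatases 5 rose, also in each fit without 1 library: Dusp16 (4.68), Dusp2 (4.17), Dusp1 (3.22), Dusp4 (2.93) and Dusp5 (2.49). The one that fell was Dusp3, from 62.6 and 29.6 to 7.43 and 5.96 FPKM (-2.52 ± 0.24). The Dusp3 call was lost without wild type LPS (limma adjusted p = 0.0503) or knockout LPS (adjusted p = 0.0559).

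Of 17 AP-1, EGR and NR4A factors, 15 rose and 1 fell (median 2.24). Nr4a3, an orphan nuclear receptor gene of the immediate early class, was at 0.86 and 1.23 FPKM with vehicle and 69.6 and 62.1 with LPS (5.03 ± 0.19). Maff (3.60), Myc (3.01), Junb (2.55) and Cebpb (2.24) rose and their calls held. Egr2, a zinc finger factor, fell from 44.3 and 37.8 to 12.1 and 9.23 FPKM (-1.86 ± 0.17, held). Rises numbered 9, 10, 10 and 9 in the fits without 1 library.

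Interleukin and growth factor genes had the largest median of any list, 5.58, with 21 of 22 higher and none lower. Il1b, encoding interleukin 1β, was at 2.97 and 89.9 FPKM with vehicle and 19504 and 17894 with LPS. The LPS libraries were nearly level and the vehicle libraries far apart, so the difference was 12.26 in wild type and 7.62 in the knockout (mean 9.94 ± 1.10, limma adjusted p = 0.00407). Without wild type LPS or knockout LPS the Il1b call was lost (adjusted p = 0.0573 and 0.0527). Its neighbour Il1a went from 3.49 and 39.9 to 11377 and 9202 FPKM (9.56 ± 0.84, held). Subunits of the heterodimeric cytokines that direct T cells rose by 8.18 (Il27), 6.67 (Il12b) and 6.13 (Il12a), and these calls held. Ebi3, the partner of Il27, was at 10.3 and 18.8, then 29.7 and 46.9 FPKM (1.36). The Ebi3 call was lost without wild type vehicle, wild type LPS or knockout LPS (adjusted p = 0.15, 0.071 and 0.149).

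Il10, encoding the anti-inflammatory interleukin 10, was at 0.352 and 0.788 FPKM with vehicle and 29.0 and 52.8 with LPS (4.69 ± 0.20, held). Il23a was listed at 0 with vehicle in both genotypes and at 41.2 and 42.4 FPKM with LPS, and Il19 at 0 and then 23.7 and 37.1. Il1rn, the interleukin 1 receptor antagonist gene, went from 18.6 and 81.3 to 1313 and 3496 FPKM (5.74 ± 0.26, held). Rises of the list numbered 18, 18, 18 and 17 in the fits without 1 library.

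Among 10 TNF superfamily ligands, 6 rose and 3 fell. Tnf was at 9.88 and 44.3 FPKM with vehicle and 4806 and 4794 with LPS (7.76 ± 0.52, limma adjusted p = 0.00157, held), so the genotypes were level with LPS and apart without it. Tnfsf15 (6.64), Tnfsf9 (4.91) and Tnfsf10, encoding TRAIL (3.91), rose with it. Tnfsf12, encoding TWEAK, fell from 43.9 and 27.3 to 6.07 and 4.76 FPKM (-2.48 ± 0.18, held). The list gave 5, 4, 6 and 4 rises and 1, 1, 2 and 2 falls without 1 library.

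Of 11 CC chemokines 9 rose and none fell (median 4.65), but with quantile scaling 8 rose and 2 fell. Ccl4, an attractant of monocytes and T cells, was at 3.11 and 27.4 FPKM with vehicle and 6025 and 6179 with LPS (9.14 ± 0.67). Ccl3 went from 27.3 and 44.8 to 11188 and 9375 FPKM (8.15 ± 0.31), and Ccl2, the monocyte attractant, from 17.4 and 18.3 to 674 and 1542 (5.76 ± 0.33); these calls held, as did Ccl7 (7.25) and Ccl22 (3.20). Rises numbered 8, 6, 8 and 6 without 1 library.

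Of 11 CXC chemokines 9 rose and 1 fell (median 3.61). Cxcl1, whose promoter is shown above, was at 3.66 and 6.14 FPKM with vehicle and 8755 and 2583 with LPS, the wild type LPS library being the higher (9.69 ± 0.59, limma adjusted p = 0.00138). Cxcl2 went from 10.3 and 43.2 to 11140 and 6526 FPKM (8.58 ± 0.67). For Cxcl10, which attracts T cells, the order was the other way, with 4.17 and 34.4 FPKM becoming 7244 and 10567 (9.34 ± 0.56). All 3 of these calls held. Cxcl14 was the faller, from 45.8 and 13.8 to 17.3 and 4.86 FPKM (-1.34 ± 0.16); its vehicle and LPS libraries overlapped between genotypes, and the call was lost in each fit without 1 library (adjusted p = 0.643, 0.132, 0.101 and 0.645) and with LPS as the only term (adjusted p = 0.207). Rises of the list numbered 4, 6, 5 and 4, and falls 0, 0, 0 and 0.

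Of 9 genes on the chemokine receptor list 3 rose and 3 fell, or 3 and 4 with quantile scaling, beside 31.6% and 19.6% of all genes called higher and lower. The list also holds receptors of ligands outside the lists above, C5ar1 and Cxcr4 among them. Ccrl2, an atypical receptor, was at 25.9 and 37.2 FPKM with vehicle and 759 and 994 with LPS (4.76 ± 0.20), and C5ar1, the C5a receptor, at 36.3 and 38.5, then 150 and 146 (1.96 ± 0.19). Cxcr4, the CXCL12 receptor, fell from 225 and 53.5 to 4.81 and 7.89 FPKM, a log2 difference of -5.28 in wild type and -2.62 in the knockout, and this call was lost without wild type LPS or knockout LPS (limma adjusted p = 0.0797 and 0.0593). Of 20 cytokine receptors 10 rose and 5 fell, with a median of 0.71 that turned to -0.38 with quantile scaling, where 4 rose and 7 fell. Il15ra (4.03), Tnfrsf1b, encoding TNF receptor 2 (2.60), and Il4ra (1.76) rose and held. Il6ra, the interleukin 6 receptor, fell from 26.4 and 15.98 to 3.12 and 1.89 FPKM (-2.64 ± 0.18, held), while its ligand gene was the largest riser of the table. The chemokine receptors gave 2, 3, 3 and 2 rises and 2, 2, 3 and 1 falls, and the cytokine receptors 4, 4, 5 and 4 rises and 1, 2, 3 and 1 falls.

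Every gene of the antiviral list rose, 26 of 26, with a median of 5.32 and 21 calls that held. Rsad2, encoding viperin, was at 0.753 and 9.50 FPKM with vehicle and 2321 and 5217 with LPS (9.66 ± 0.38, limma adjusted p = 0.000821). Ifit1 went from 0.887 and 15.0 to 1820 and 2028 FPKM (8.45 ± 0.71), and Cmpk2, the gene next to Rsad2, from 1.14 and 5.38 to 750 and 1766 (8.29 ± 0.21). For each of these genes the knockout library was above the wild type library at both treatments. Oasl1 (8.29), Isg15 (7.64), Mx1 (7.41) and Usp18 (6.05) rose and held, and the smallest rise was that of Ifitm3, from 248 and 829 to 2800 and 3162 FPKM (2.71 ± 0.42). The Ifitm3 call was lost with quantile scaling (adjusted p = 0.0674) and without wild type LPS (adjusted p = 0.108) or knockout LPS (adjusted p = 0.117). Ifit, Oas, Mx and Slfn genes are families of similar copies whose fragments may be divided between members. Ifnb1, encoding interferon β, was listed at 0 in both vehicle libraries and at 6.21 and 165 FPKM with LPS, and without wild type vehicle or knockout vehicle its call was lost (adjusted p = 0.141 and 0.124).

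Interferon regulatory factors and STATs rose in 11 of 14 (median 2.08). With quantile scaling 7 rose and 1 fell (median 1.27). Irf7, the factor that amplifies interferon production, was at 7.28 and 61.7 FPKM with vehicle and 909 and 1388 with LPS (5.62 ± 0.57). Without wild type LPS or knockout LPS its call was lost (limma adjusted p = 0.0642 and 0.0714). Stat2 (3.55), Irf4 (2.20) and Irf9 (1.76) rose and held. The list gave 5, 7, 9 and 6 rises without 1 library.

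All 15 guanylate-binding proteins and immunity GTPases, which act on vacuoles that hold pathogens, rose (median 4.00). Gbp3 was at 23.7 and 55.6 FPKM with vehicle and 866 and 1131 with LPS (4.73 ± 0.28), and Igtp at 17.7 and 43.9, then 408 and 519 (3.99 ± 0.29). These calls and that of Gvin1 (3.78) held, and no other call of the list did. The largest rises, those of Gbp5 (5.90) and Ifi47 (4.75), were among the calls that did not hold. Tgtp1 and Tgtp2 are near-identical copies, so their separate values are uncertain.

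Antigen presentation genes rose in 16 of 21 and fell in 2 (median 1.47), but with quantile scaling 5 rose and 7 fell. Nlrc5, the class I transactivator, was at 5.32 and 12.8 FPKM with vehicle and 98.9 and 117 with LPS (3.54 ± 0.27), and the peptide transporter gene Tap2 at 20.3 and 39.1, then 182 and 223 (2.79 ± 0.24). Both calls held, and no other call of the list did. Ciita, the class II transactivator, went from 8.52 and 9.02 to 4.64 and 5.50 FPKM (-0.69 ± 0.18), a call lost with no filter on low values (limma adjusted p = 0.0642) and in each fit without 1 library (adjusted p = 0.138, 0.0911, 0.151 and 0.0566). Without 1 library the list gave 5, 2, 13 and 2 rises and no falls. Of 15 costimulation and adhesion genes 13 rose and none fell (median 2.06), but with quantile scaling 9 rose and 1 fell. Cd40 was at 12.8 and 22.01 FPKM with vehicle and 890 and 1114 with LPS (5.80 ± 0.22), and Cd69, an early activation antigen gene, at 1.42 and 3.62, then 118 and 300 (5.82 ± 0.19). Cd80 (3.50), Cd83 (3.28) and Vcam1 (4.34) also rose, all held, and rises numbered 10, 8, 9 and 8.

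**Figure D3:**
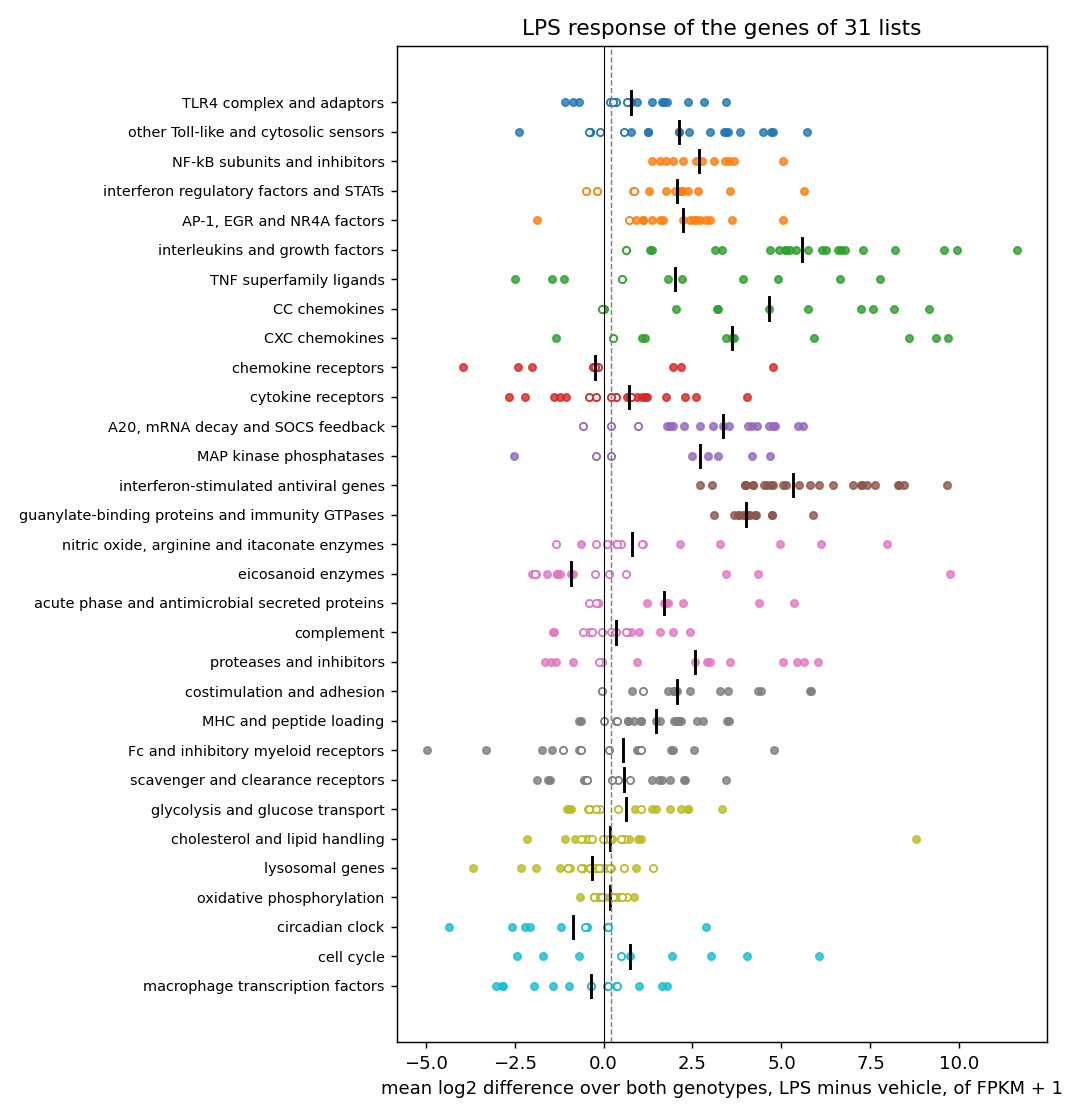
Log2 difference of FPKM + 1, LPS minus vehicle, averaged over genotypes (x axis), for the tested genes of 31 lists (rows), 1 point per gene. Filled points passed the limma test, open points did not, bars are list medians and the dashed line is the median of all genes, 0.21; the interleukin and antiviral medians, 5.58 and 5.32, lie farthest right, and those of chemokine receptors, eicosanoid enzymes, the clock, macrophage transcription factors and lysosomal genes lie left of 0.

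Of 14 nitric oxide, arginine and itaconate enzymes 6 rose and 1 fell. Nos2, the inducible nitric oxide synthase, was listed at 0 and 2.11 FPKM with vehicle and at 164 and 1189 with LPS (limma adjusted p = 0.000877, held). Gch1, which makes its cofactor tetrahydrobiopterin (3.26), and Odc1, the polyamine enzyme (2.14), rose and held. The itaconate enzyme gene, listed as Irg1, was at 17.4 and 232 FPKM with vehicle and 4733 and 4367 with LPS (6.12 ± 0.90), and without wild type LPS or knockout LPS its call was lost (adjusted p = 0.0881 and 0.0817). Arg1, encoding arginase 1, was at 82.8 and 72.8 FPKM with vehicle and at 9.04 and 95.4 with LPS, lower in wild type (-3.06) and higher in the knockout (0.39), and it did not pass the test (adjusted p = 0.228). Without knockout LPS it passed as lower (-2.97, adjusted p = 0.0277), and without wild type LPS the sign turned (0.29). The median of this list, 0.79, turned to -0.094 with quantile scaling, and rises numbered 5, 3, 7 and 4 and falls 0, 0, 0 and 1.

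Of 15 eicosanoid enzymes 3 rose and 8 fell (median -0.91). Ptgs2, the inducible cyclooxygenase (chromosome 1, 150100031 to 150108227), was at 0.508 and 10.7 FPKM with vehicle and 3572 and 3555 with LPS (9.73 ± 0.71, limma adjusted p = 0.00185, held). The phospholipase gene Pla2g4a, which releases arachidonate, also rose (3.44, held). Ptgs1, the constitutive cyclooxygenase, fell from 12.4 and 12.5 to 1.54 and 3.42 FPKM (-2.01 ± 0.26), a call lost without wild type vehicle (adjusted p = 0.0544). Ltc4s, the leukotriene C4 synthase, fell from 12.2 and 12.7 to 2.58 and 2.60 FPKM (-1.90 ± 0.19, held). The list gave 3, 2, 3 and 2 rises and 1, 4, 5 and 4 falls without 1 library.

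Of 11 acute phase and antimicrobial proteins 7 rose and none fell (median 1.70), but with quantile scaling 4 rose and 4 fell, and 1 call held. Ptx3, encoding a soluble pattern recognition protein, was at 0.09 and 0.657 FPKM with vehicle and 29.6 and 96.5 with LPS (5.34 ± 0.30). Saa3 was at 7608 and 32418 FPKM with vehicle and 46089 and 66561 with LPS (1.82 ± 0.41, limma adjusted p = 0.021). The knockout vehicle library held more than 4-fold the Saa3 of the wild type one, and the call was lost with quantile scaling (adjusted p = 0.15), no filter (adjusted p = 0.43), LPS as the only term (adjusted p = 0.102) and without wild type vehicle, wild type LPS or knockout LPS (adjusted p = 0.162, 0.283 and 0.424). Lcn2, encoding lipocalin 2, was at 0.361 and 24.1, then 59.2 and 246 FPKM, and its call was likewise lost with LPS as the only term (adjusted p = 0.0692) and without wild type vehicle, wild type LPS or knockout LPS (adjusted p = 0.153, 0.131 and 0.266). Rises of the list numbered 1, 1, 5 and 1. Complement had 5 of 15 higher and 2 lower, beside 31.6% and 19.6% of all genes. Its median of 0.36 turned to -0.49 with quantile scaling (2 higher, 7 lower). Of the complement calls only that of C5ar1 held.

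Among 15 proteases and inhibitors 9 rose and 4 fell (median 2.57), or 7 and 6 with quantile scaling (median 1.51). Serpinb2, encoding an inhibitor of plasminogen activators, was at 32.6 and 129 FPKM with vehicle and 5409 and 1982 with LPS (5.63 ± 0.82), and F3, the coagulation initiator tissue factor, at 5.09 and 8.90, then 356 and 184 (5.05 ± 0.42). These calls held, with those of Timp1 (5.44), Mmp13 (3.57) and Plaur (2.98), and rises numbered 7, 6, 8 and 6 and falls 0, 0, 2 and 2.

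Cd300lb, an activating myeloid receptor, fell from 102 and 49.2 to 1.35 and 1.25 FPKM (-4.97 ± 0.28, held), and the activating receptor Trem1 rose from 0.246 and 0.797 to 34.1 and 47.9 (4.79 ± 0.18, held). Of 16 Fc and inhibitory receptors 6 rose and 5 fell, with a median of 0.55 that turned to -0.094 with quantile scaling. For this list and the next, the shares of all genes were 31.6% higher and 19.6% lower. Scavenger and clearance receptors gave 7 rises and 3 falls of 16 (median 0.58), but 2 and 6 with quantile scaling, and the Fc list 4 and 7. Stab1, a scavenger of modified proteins, fell from 11.3 and 11.8 to 2.49 and 2.43 FPKM (-1.86 ± 0.19), Scarb1, the HDL receptor, fell (-1.51), and Axl, an apoptotic cell receptor, rose from 30.4 and 23.4 to 126 and 137 (2.26 ± 0.22); these held. The Fc list gave 2, 3, 4 and 2 rises and 2, 2, 4 and 2 falls, and the scavenger list 3, 2, 6 and 2 rises and 2, 2, 3 and 2 falls.

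Glycolysis genes gave 8 rises and 3 falls of 18, beside 31.6% and 19.6% of all genes. Their median of 0.64 turned to -0.40 with quantile scaling (7 rises, 9 falls). The glucose transporter gene Slc2a6 was at 22.98 and 47.0 FPKM with vehicle and 320 and 361 with LPS (3.33 ± 0.28), and the regulatory enzyme Pfkfb3 at 19.9 and 19.7, then 88.2 and 131 (2.39 ± 0.23). Those calls held, with Hk2 (2.38) and Pfkp (2.16), and rises numbered 4, 5, 5 and 5 with no falls. Of 20 oxidative phosphorylation genes 1 rose and 1 fell, and after quantile scaling 11 fell, the median going from 0.19 to -0.72 (-0.032 with median centring); the fits without 1 library called none. Gapdh stood at only 1.52 to 8.90 FPKM over the 4 libraries, and values this low may therefore come from an estimate that failed.

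Of 19 cholesterol and lipid genes 4 rose and 3 fell, beside 31.6% and 19.6% of all genes. Ch25h, which makes 25-hydroxycholesterol, was at 0.203 and 2.96 FPKM with vehicle and 845 and 1070 with LPS (8.77 ± 0.37, limma adjusted p = 0.000877), and Soat1, the sterol acyltransferase, fell from 52.3 and 47.0 to 9.20 and 11.6 (-2.16 ± 0.20); both held. The median, 0.18, turned to -0.47 with quantile scaling (1 rise, 7 falls) and -0.046 with median centring, and rises numbered 1, 1, 1 and 2 and falls 1, 1, 1 and 1. Lysosomal genes gave 1 rise and 6 falls of 22 (median -0.32), and 17 falls with quantile scaling (median -1.32). Pla2g15, the lysosomal phospholipase, fell from 97.4 and 40.9 to 4.80 and 3.49 FPKM (-3.65 ± 0.26), and Tfeb, the regulator of lysosomal genes, from 15.5 and 12.2 to 2.33 and 3.67 (-1.91 ± 0.26), and both held; rises numbered 0, 0, 1 and 0 and falls 3, 3, 5 and 3.

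Of 10 clock genes 1 rose and 5 fell (median -0.86). Nfil3, a repressor of D-box genes, was at 13.2 and 12.0 FPKM with vehicle and 120 and 82.1 with LPS (2.88 ± 0.20), while Dbp, an activator of the same sites, fell from 42.8 and 14.7 to 0.593 and 0.066 FPKM (-4.33 ± 0.29). Bhlhe41 fell by 2.21 on the log2 scale, and these calls held; falls numbered 2, 4, 5 and 2. Of 9 cell cycle genes 5 rose and 3 fell. Ccnd2, encoding cyclin D2, went from 1.84 and 3.53 to 201 and 282 FPKM (6.06 ± 0.18), and the inhibitor gene Cdkn1a from 41.1 and 47.3 to 735 and 740 (4.03 ± 0.21), both held, while Ccna2, Ccnb1, Cdk1 and Top2a stayed under the 5 FPKM filter. The cell cycle median, 0.76, turned to -0.0069 with quantile scaling, and rises numbered 4, 4, 4 and 3 and falls 2, 0, 1 and 0. Of 15 macrophage transcription factors 3 rose and 6 fell (median -0.36), and 4 of the falls held. Nfic (-2.84), Rxra, a partner of many nuclear receptors (-1.96), and Klf2 (-1.43) fell; rises numbered 1, 1, 1 and 1.

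The 15 largest falls had a narrower range than the rises, from -5.08 to -3.70. On log2 of FPKM + 1 a fall cannot exceed the vehicle value, while a rise has no such limit. Tmem86a, encoding a lysoplasmalogenase, was at 85.9 and 52.6 FPKM with vehicle and 0.843 and 1.21 with LPS (-5.08 ± 0.27, limma adjusted p = 0.00133). Slc43a2, an amino acid transporter gene, was nearly the same in both genotypes, at 74.3 and 75.2, then 2.62 and 2.66 FPKM (-4.38 ± 0.16). Ypel3 (-4.65), Sesn1, encoding the stress protein sestrin 1 (-4.39), Arl11 (-4.22), Mxd4, an antagonist of MYC (-3.93), Abcd2, a peroxisomal transporter (-3.92), Nfam1 (-3.90) and Krt80 (-3.70) fell, and all of these calls held. Engase, at 85.6 and 9.56, then 0.562 and 0.309 FPKM, lost its call without wild type LPS (adjusted p = 0.102) or knockout LPS (adjusted p = 0.109), and so did Dhrs3 (adjusted p = 0.0786 and 0.0906) and Rnf144b (adjusted p = 0.0586 and 0.0504). Of the 900 genes at least 2-fold lower in both genotypes, 95 were under 1 FPKM in both LPS libraries. Of the 1451 higher ones, 85 were under 1 FPKM in both vehicle libraries, among them U90926, at 0 and 0.437 FPKM with vehicle and 240 and 867 with LPS (adjusted p = 0.000835, held). Hdc, the histamine-forming enzyme on the mast cell list, rose from 2.64 and 1.66 to 171 and 184 FPKM (5.84 ± 0.21, held) and made up most of that list's change.

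The 1451 raised genes made up 11.1% and 20.5% of the summed FPKM with vehicle and 50.7% and 53.0% with LPS. The 900 lowered genes went from 6.01% and 4.38% to 0.681% and 0.682%. These genes were chosen by the same values, so the shares describe them and carry no test.

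Some raised genes lay side by side. There were 36 runs of at least 4 consecutive tested genes that were all at least 2-fold higher in both genotypes, with 179 of the 1451 genes, and 2 such runs of lower genes, with 8. More tested genes were raised (17.3%) than lowered (10.7%), which by itself favours runs of rises. Untested genes may lie within a run. Some runs were wide, such as the 7 genes from Rbms1 to Cers6 on chromosome 2 (60750193 to 69114282). On chromosome 11 (82951349 to 83215154) the 8 Slfn genes from Slfn5 to Slfn3 had log2 differences of 2.65 to 5.87. On chromosome 19 (34550694 to 34650009) the 6 genes from Ifit2 to Ifit1 had 2.73 to 8.45, and on chromosome 5 (120730333 to 120907521) 6 Oas genes had 1.50 to 5.49. Other runs held Cxcl3, Cxcl1 and Cxcl2 on chromosome 5 (90786103 to 91148432, 6 genes), the Trim30 group on chromosome 7 (102557921 to 104507849, 7 genes) and Psmb9, Tap1, Psmb8 and Tap2 of the antigen processing group on chromosome 17 (34181987 to 34216321). Members of these families share sequence, and the kit does not mark strand, so overlapping neighbours may share fragments.

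The differences of the genotypes were set side by side. Across the 8404 genes, which are not independent replicates, the wild type and knockout log2 differences had a Pearson correlation of 0.917, and 7363 genes (87.6%) had the same sign. The 2 differences were at least 2-fold apart for 758 genes, larger in wild type for 357 and in the knockout for 401. With vehicle 379 genes were at least 2-fold higher and 210 at least 2-fold lower in the knockout library than in the wild type one, and with LPS 381 and 163. Of the 119 genes at least 16-fold higher, 109 were higher in the knockout than in the wild type vehicle library, beside 4213 of all 8404. Their median log2 difference was 1.03 against 0.0013 for all genes. With LPS 87 of the 119 were higher in the knockout, with a median of 0.34, beside 4392 of all 8404 and a median of 0.021. These 119 genes were chosen by LPS differences that use the same libraries, and the knockout vehicle library has no replicate.

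**Figure D4:**
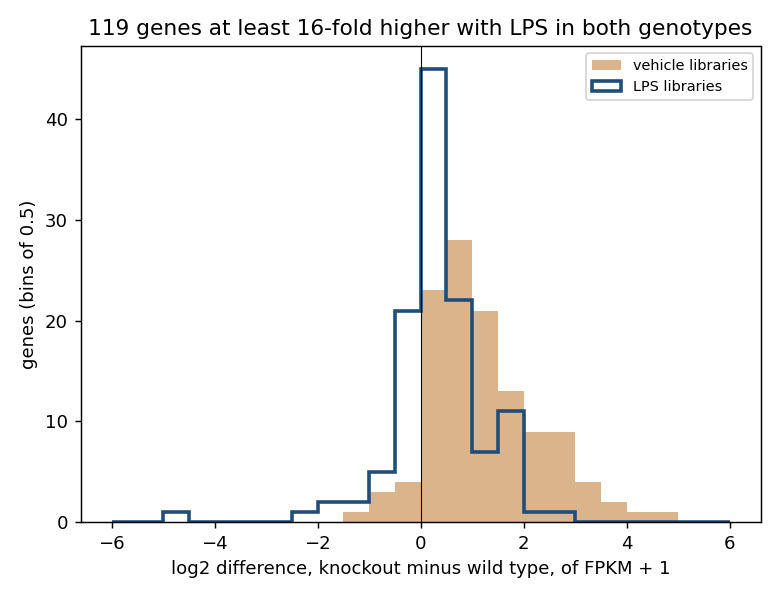
Number of genes (y axis, bins of 0.5) by log2 difference of FPKM + 1, knockout minus wild type (x axis), for the 119 genes at least 16-fold higher with LPS in both genotypes. The filled histogram, from the vehicle libraries, lies mostly right of 0 around its median of 1.03, and the outlined one, from the LPS libraries, is centred nearer 0 with a median of 0.34.

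The response without nicotine was set beside the response of the other 4 libraries, where cells had nicotine before LPS or before vehicle. With nicotine 407 genes were at least 2-fold higher in both genotypes, of which 355 were among the 1451 (24.5% of the 1451 and 87.2% of the 407), and 157 were lower, of which 90 were among the 900 (10% and 57.3%). The difference itself was tested by an LPS by nicotine term over all 8 libraries (limma, 3 residual degrees of freedom). By this term 1728 genes (20.6%) had a lower LPS difference with nicotine and 957 (11.4%) a higher one. Median centring gave 1139 and 1301 and quantile scaling 1198 and 1461, so the direction of the majority turned with the scale. The counts were 656 and 361 without wild type vehicle, 672 and 433 without wild type nicotine, 1652 and 837 without wild type LPS and 538 and 327 without wild type nicotine with LPS. Without the knockout libraries, in the same order, they were 1060 and 587, 778 and 398, 1995 and 1230, and 704 and 414.

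Among the strongest risers, Il6 was at 4.16 and 6.33 FPKM with nicotine alone and 242 and 1274 with nicotine and LPS, so its LPS difference was smaller than without nicotine (-5.12 ± 0.78, limma adjusted p = 0.00791). Nos2 reached 1.56 and 3.61 FPKM with nicotine and LPS, against 164 and 1189 with LPS alone (-6.45 ± 0.77, limma adjusted p = 0.00528). Ch25h reached 9.02 and 11.0 FPKM (-6.08 ± 0.55) and Il27 0.506 and 6.41 (-6.44 ± 0.72). Smaller rises with nicotine were also called for Rsad2 (-3.42), Il1a (-6.18), Il12b (-2.94), Cmpk2 (-2.29), Cd14 (-2.08) and Tnfaip3 (-1.84). Each call of this paragraph was made again with any 1 of the 8 libraries left out. Il10 (-0.18 ± 0.45, adjusted p = 0.776), Ifit1 (-0.86 ± 0.87, adjusted p = 0.467) and Cxcl10 (-1.54 ± 0.73, adjusted p = 0.149) did not pass, which does not show that they were alike. The strongest risers were chosen by their LPS difference without nicotine, which the term uses again, and that choice by itself favours a smaller difference with nicotine.

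Of the largest falls, Sesn1 was at 10.5 and 8.10 FPKM with nicotine alone and 8.51 and 7.41 with both, a difference higher by 4.20 ± 0.24 than without nicotine (limma adjusted p = 0.00202). Its level with nicotine alone was already below the 57.5 and 37.7 FPKM of the vehicle libraries. Ypel3 (4.06 ± 0.39), Dbp (3.88 ± 0.37), Nfam1 (3.30 ± 0.32) and Tmem86a (2.53 ± 0.32) were called in the same direction, also with any 1 library left out. By list the median difference went from 5.58 to 2.27 for interleukins, from 5.32 to 4.03 for antiviral genes, from 4.00 to 3.24 for guanylate-binding proteins, from 3.37 to 1.57 for feedback genes and from 2.57 to 0.26 for proteases, beside 0.21 and -0.0060 for all genes. The term called 17 of 22 interleukins, 14 of 26 antiviral genes and 2 of 15 guanylate-binding proteins lower with nicotine and none of them higher. Over all genes it called 20.6% lower and 11.4% higher.

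**Figure D5:**
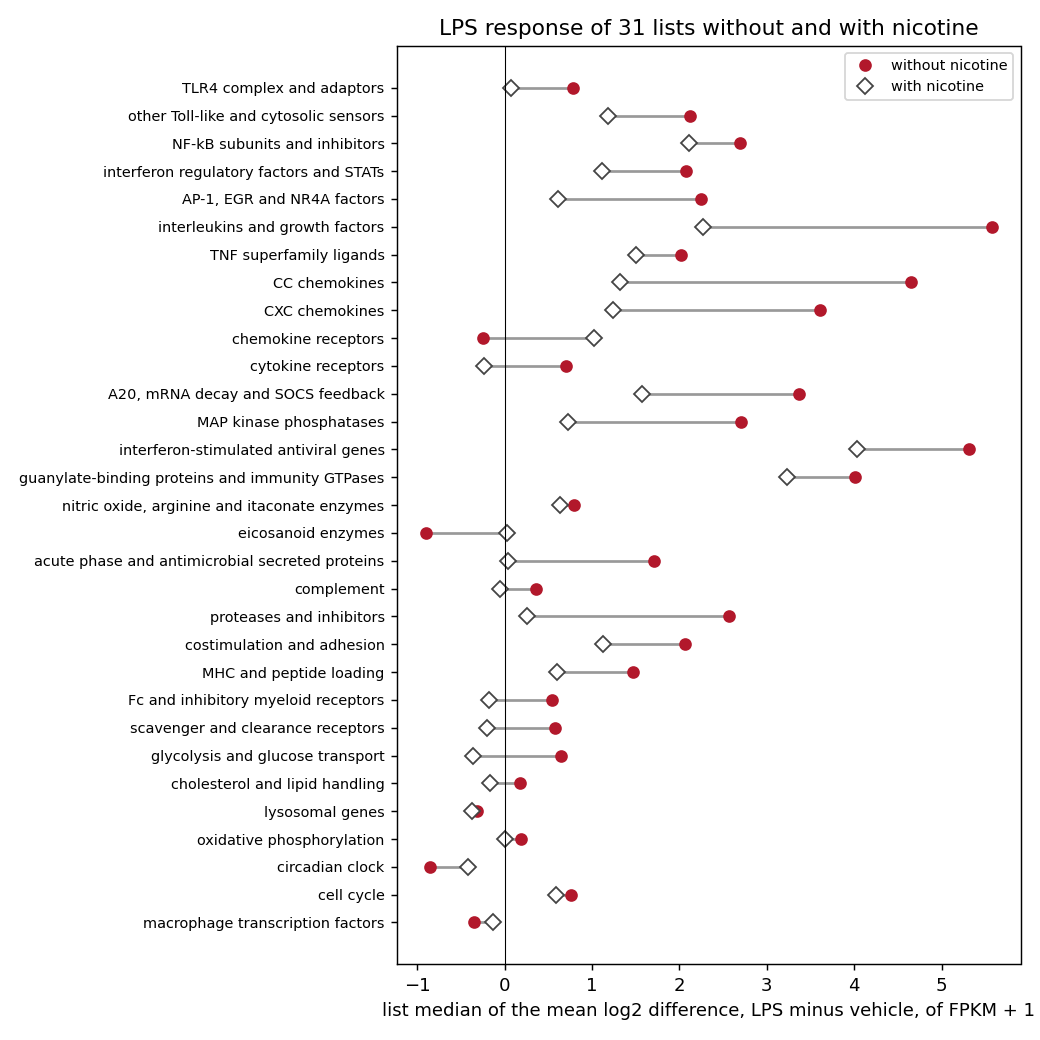
Median over each of 31 lists (rows) of the log2 difference of FPKM + 1, LPS minus vehicle, averaged over genotypes (x axis). Filled circles are libraries without and open diamonds libraries with nicotine; the interleukin median lies at 5.58 and 2.27 and that of guanylate-binding proteins at 4.00 and 3.24.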

How the data were processed

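RNA was measured in 8 libraries, of which 4 without nicotine made the comparison and all 8 the LPS by nicotine term. The deposited values are FPKM, made by the authors with 1 column per library; mm10, Cuffdiff, Cufflinks, HISAT2 and CASAVA 1.8 appear, with no role or order, per the submitters' processing notes. The sources used here do not give the annotation, any filter or how libraries were scaled. The library kit was TruSeq RNA v2, per the labels' protocols; this kit is known not to mark strand. Samples were grouped by their labels. A few genes are not reported here by name, but enter the counts and medians.

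The table had 24341 lines; 2 repeated symbols were resolved to the line with the higher mean, and 25 symbols read as dates. Genes with at least 5 FPKM in any of the 4 libraries were tested on log2(FPKM + 1) with limma 3.58.1 in R 4.3.3, with terms for genotype and LPS, a trended prior and Benjamini-Hochberg adjustment at 0.05. This leaves 1 residual degree of freedom, so the genotypes stand in for replicates, and a real genotype difference in response enlarges the spread. The prior, estimated from all genes tested, adds 3.65 degrees of freedom, so most of the weight in each moderated SE comes from other genes. An exact test on 2 against 2 libraries cannot pass 0.05. The LPS by nicotine term came from genotype, LPS, nicotine and their product. The fit was also run on simulated data whose variances were drawn from its own prior, with no genotype difference in response. That run therefore does not show how the fit performs on these libraries. Alternatives were other pseudocounts, filters, scalings, priors, terms and left-out libraries; leaving out libraries for the LPS by nicotine term was added after seeing the data. Of 602 list entries 599 matched a symbol, 1 by a synonym (Irg1), and members and lists were chosen with earlier results of these data known. Named genes were the 15 largest rises and 15 largest falls among genes called and at least 2-fold in both genotypes (predicted, Rik and small RNA genes left out), the extremes of each list and a set of LPS pathway genes; other members named beside them were chosen after their values were seen. Positions are from GENCODE M21 and promoters from RefSeq, both on GRCm38. Python 3.11.15, pandas 2.3.3, NumPy 2.4.6 and Matplotlib 3.10.9 did the rest.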

Additional observations from a re-analysis of the deposited data

Results flagged for a closer look

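Of 43 genes examined for the LPS by nicotine term, made up of the 30 largest rises and falls and the LPS pathway genes called for LPS alone, limma called 32, beside 20.6% of all genes called lower and 11.4% called higher with nicotine. The 30 were chosen by their LPS difference without nicotine, which the term uses again, and that choice by itself favours a smaller difference with nicotine. Negative values mean a smaller rise with nicotine. On the log2 scale they were -5.12 for Il6, -3.79 for Ptgs2, -3.25 for Cxcl1, -3.42 for Rsad2, -6.18 for Il1a, -6.08 for Ch25h, -3.79 for Cxcl2, -8.11 for U90926, -1.78 for Oasl1, -2.29 for Cmpk2 and -6.44 for Il27. They were -2.08 for Cd14, -1.84 for Tnfaip3, -2.94 for Il12b, -2.83 for Ccl2, -6.45 for Nos2, -1.99 for Saa3 and -4.18 for Lcn2. Genes that fell less with nicotine were Tmem86a (2.53), Cd300lb (2.51), Ypel3 (4.06), Engase (4.29), Sesn1 (4.20), Slc43a2 (2.48), Dbp (3.88), Arl11 (2.99), Cxcr4 (3.27), Mxd4 (3.37), Abcd2 (3.85), Nfam1 (3.30), Rnf144b (2.45) and Krt80 (2.07). The level of Sesn1 with nicotine alone was already below that with vehicle, as given above. Whether this holds for the other genes was not tested. With each of the 8 libraries left out in turn 21 of the 32 calls held; those of Ptgs2, Cxcl1, Cxcl2, Oasl1, Engase, Cxcr4, Rnf144b, Krt80, Ccl2, Saa3 and Lcn2 were lost at least once, at adjusted p from 0.0508 to 0.166.

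The LPS difference went opposite ways by at least 2-fold in the genotypes for 3 genes, and this was not tested, since each value rests on 1 pair of libraries. Gprc5b was higher with LPS in wild type (1.44) and lower in the knockout (-1.46), Il20rb likewise (1.20 and -1.44), and I830077J02Rik the other way (-1.07 and 1.41).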

How the results depend on the processing

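The 152 called genes named above include the largest changes and members chosen after their values were seen. Their stability was favoured by that choice and does not stand for that of all calls. None of the 152 lost its call or changed sign with a pseudocount of 0.1 or 5, a filter of 1 FPKM, median centring, a constant prior or all 8 libraries in the fit. The call was lost for 4 with quantile scaling, 3 with LPS as the only term and 2 with no filter, and for 23 without the knockout LPS library, 21 without that of wild type LPS, 11 without wild type vehicle and 4 without knockout vehicle. Among genes that did not pass, Tlr4 turned to -0.11 and Ly96 to -0.49 with quantile scaling, and Ly96 to -0.034 with median centring. Without 1 library Tlr4 ranged from -0.087 to 0.73, Ly96 from -0.15 to 0.52 and Arg1 from -2.97 to 0.29. Genes called higher numbered 862 to 1392 and lower 488 to 914 with 1 library left out and the genotype term dropped, against 2652 and 1646; dropping the term alone gave 2325 and 1427. Genes at least 2-fold lower in both genotypes numbered 374 with a pseudocount of 5, which shrinks the differences of low genes by construction. By the LPS by nicotine term, genes lower with nicotine numbered 1139 with median centring, and those higher with nicotine 1478 with a filter of 1 FPKM, where more genes are tested, and 1461 with quantile scaling; without 1 library they ranged from 538 to 1995 and from 327 to 1230, and the cause was not tested. No paired analysis was possible because each group has 1 library, if pairs are taken by replicate number; pairing by genotype is part of the fit itself, and the counts without that term are those given above. Depth is unknown in counts, so no floor can be given for genes listed at 0.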

Other observations

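Beside Saa3, the most abundant mRNA with LPS was that of ferritin heavy chain, Fth1, at 11984 and 18349 FPKM with vehicle and 31621 and 31798 with LPS, while the light chain gene Ftl1 was at 9559 and 8681, then 9699 and 7670 FPKM. Lyz2, at 32448 and 28713 FPKM, was at 23023 and 23020 with LPS. The next 7 places by the mean of both LPS libraries were those of the cytokine and chemokine genes Il1b, Ccl5, Il1a, Ccl3, Il6, Cxcl10 and Cxcl2. Of these Ccl5, an attractant of T cells, had the highest level with vehicle in the knockout, 311 FPKM, against 17.7 in wild type, and was at 13986 and 15078 with LPS.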
